A study of Mus musculus with 4 samples.

Results

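Major histocompatibility complex (MHC) class I genes and B2m were compared between naive and pretreated mouse embryonic fibroblasts (MEFs) after 1 h of interferon-beta. The members were all rows of the deposited expression table that carry a transcript ID and overlap any of 4 windows of genome build mm9. The windows cover H2-K1, H2-D1 with the H2-Q genes, and the H2-T genes, all on chromosome 17, and B2m on chromosome 2. This gave 25 rows in 8 genomic spans, out of 15883 rows with a transcript ID and 17576 rows in all. The windows were chosen with the contrast between these libraries known, so the members' values are a description and carry no test.

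MHC class I molecules display peptides from inside the cell to CD8+ T cells and to natural killer cells. Each consists of a membrane-bound heavy chain, encoded in mouse by the H2 genes on chromosome 17, and the small invariant chain beta-2-microglobulin, encoded by B2m on chromosome 2. H2-K1 and H2-D1 encode classical heavy chains, which vary greatly between strains, whereas the H2-Q and H2-T regions encode mostly non-classical chains. Type I interferon acts through its receptor and JAK kinases on the transcription factor ISGF3, which binds the interferon-stimulated response element (ISRE) of target promoters, and class I genes are well known targets.

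The MEFs were of strain C57BL/6 and came from H3.3-HA knock-in mice, in which the H3f3b gene was exchanged for a cDNA of the tagged histone H3.3, so both groups carry this allele. Labels give 4 groups with 1 library each, which are naive or pretreated cells, at 0 h or given interferon-beta (100 U/ml) for 1 h. The 2 libraries at 1 h were compared, and the 0 h libraries were not analysed here. Whether a difference at 1 h was already present before that dose, or arose after it, was therefore not tested. Interferon-beta is the only agent the labels name; they do not spell out what the pretreatment was, how long it lasted or when it ended. They name both RNA-seq and scTSS-seq as the assay. Because each group is a single library, spread between replicates is unknown for every value and every difference below. Values are FPKM, which are fragments scaled by transcript length and library size. Levels of different rows, their ranks and their sums can be set side by side only if reads cover whole transcripts, as in RNA-seq; for reads from transcript starts the length scaling would not hold. The ratio of a row between libraries does not rest on that.

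The table names rows by a serial number and UCSC transcript IDs, without gene symbols, and overlapping genes share a span. Spans were therefore set against distances between annotated gene ends in GRCm38, keeping the order of genes along the chromosome, and 6 of the 8 member spans were named because they agreed to the base. The other 2 agreed only with gene ends that stand elsewhere in the order, and were left unnamed. The ends of a span could belong to different genes, and how often such pairs agree by accident was not tested. The H2-K1 span (chromosome 17, 34111604 to 34137278, 3 rows) is as long as the stretch from H2-K2, a class I pseudogene, to H2-K1, its only protein-coding gene. The large H2-D1 and H2-Q span (35378691 to 35580718, 7 rows) is as long as the stretch from Ddx39b, an RNA helicase gene outside the class I family, to H2-Q7, and holds 7 annotated protein-coding genes: Ddx39b, H2-D1, H2-Q1, H2-Q2, H2-Q4, H2-Q6 and H2-Q7. The span from 35607034 to 35611508 has 1 row and the length of H2-Q10. The large H2-T span (36131449 to 36266637, 9 rows) is as long as the stretch from the lncRNA A930015D03Rik to Gm19684, and includes H2-T24, H2-T23, H2-T22, H2-T10 and H2-Bl. The B2m span (chromosome 2, 121945844 to 122011925, 2 rows) has the length of Patl2, within which B2m and Trim69 lie. Rows inside a shared span were not assigned to single genes.

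The promoter letters are shown because most members were higher together in pretreated cells. For 11 of 14 genes searched, RefSeq (GRCm38.p6) gave a start, and the 250 bases before it were read. Capitals mark the ISRE core (GAAA, any 2 bases, GAAA) or a form shorter by 1 base, GAANNGAAA, on either strand. Only some of the genes read are printed, and each of those has such a match. H2-Q2 and H2-T3, which have none, were read but are not printed.
B2m (chr2:122147437-122147686, plus strand): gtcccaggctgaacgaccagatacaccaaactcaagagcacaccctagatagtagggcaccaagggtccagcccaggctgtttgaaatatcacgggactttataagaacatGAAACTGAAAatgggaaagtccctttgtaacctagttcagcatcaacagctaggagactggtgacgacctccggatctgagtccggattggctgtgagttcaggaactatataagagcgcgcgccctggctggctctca
H2-K1 (chr17:34000334-34000583, minus strand): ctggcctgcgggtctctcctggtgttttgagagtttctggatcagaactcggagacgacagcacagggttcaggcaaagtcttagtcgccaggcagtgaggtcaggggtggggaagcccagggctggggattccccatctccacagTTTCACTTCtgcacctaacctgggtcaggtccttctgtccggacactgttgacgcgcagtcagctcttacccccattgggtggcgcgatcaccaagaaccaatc
H2-D1 (chr17:35262844-35263093, plus strand): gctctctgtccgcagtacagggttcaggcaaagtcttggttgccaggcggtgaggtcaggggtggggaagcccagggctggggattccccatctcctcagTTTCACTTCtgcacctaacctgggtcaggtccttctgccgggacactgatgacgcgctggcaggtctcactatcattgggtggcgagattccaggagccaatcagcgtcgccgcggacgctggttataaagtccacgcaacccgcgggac
H2-Q7 (chr17:35438905-35439154, plus strand): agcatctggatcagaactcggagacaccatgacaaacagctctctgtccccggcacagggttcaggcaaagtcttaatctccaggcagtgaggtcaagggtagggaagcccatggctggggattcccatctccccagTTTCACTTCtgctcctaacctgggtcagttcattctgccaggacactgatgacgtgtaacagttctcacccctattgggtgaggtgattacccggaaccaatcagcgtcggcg
H2-T22 (chr17:36042743-36042992, minus strand): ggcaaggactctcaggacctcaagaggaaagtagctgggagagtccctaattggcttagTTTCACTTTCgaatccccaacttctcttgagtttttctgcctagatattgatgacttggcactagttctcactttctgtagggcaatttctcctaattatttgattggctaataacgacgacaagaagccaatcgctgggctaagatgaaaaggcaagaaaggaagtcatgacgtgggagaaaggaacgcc
H2-T23 (chr17:36032702-36032951, minus strand): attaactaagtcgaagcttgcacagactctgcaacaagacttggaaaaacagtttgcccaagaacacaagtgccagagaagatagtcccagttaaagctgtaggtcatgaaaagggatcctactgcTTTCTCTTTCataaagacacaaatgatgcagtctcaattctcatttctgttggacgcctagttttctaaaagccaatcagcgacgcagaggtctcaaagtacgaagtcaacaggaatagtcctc

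The full ISRE core lay before 3 genes, at bases -139 to -130 of B2m, -191 to -182 of H2-T22 and -124 to -115 of H2-T23, counted from the start. The shorter GAANNGAAA lay before 6 further genes, H2-K1, H2-D1, H2-Q4, H2-Q6, H2-Q7 and H2-Q10. Of all 32851 RefSeq starts with 250 bases, 2.98% had the full core and 6.31% had the shorter form. GGGGATTCC, the core of enhancer A, which binds NF-kB factors, lay before 4 of the 11 genes (H2-K1, H2-D1, H2-Q6 and H2-Q7) and before 0.213% of all starts. In H2-K1, H2-D1 and H2-Q6 its first base lay 21 bases before that of the shorter ISRE form, and in H2-Q7 20 bases before, so these promoters share the order and nearly the spacing of both elements. CCAAT was found before 9 of the 11 genes and 33.8% of all starts, and TGACG, a part of the cAMP response element, before 6 of the 11 and 17.8% of all starts. Both strands were searched, and 0 matches of different motifs overlapped. A match describes letters only, and binding was not measured.

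**Figure D1:**
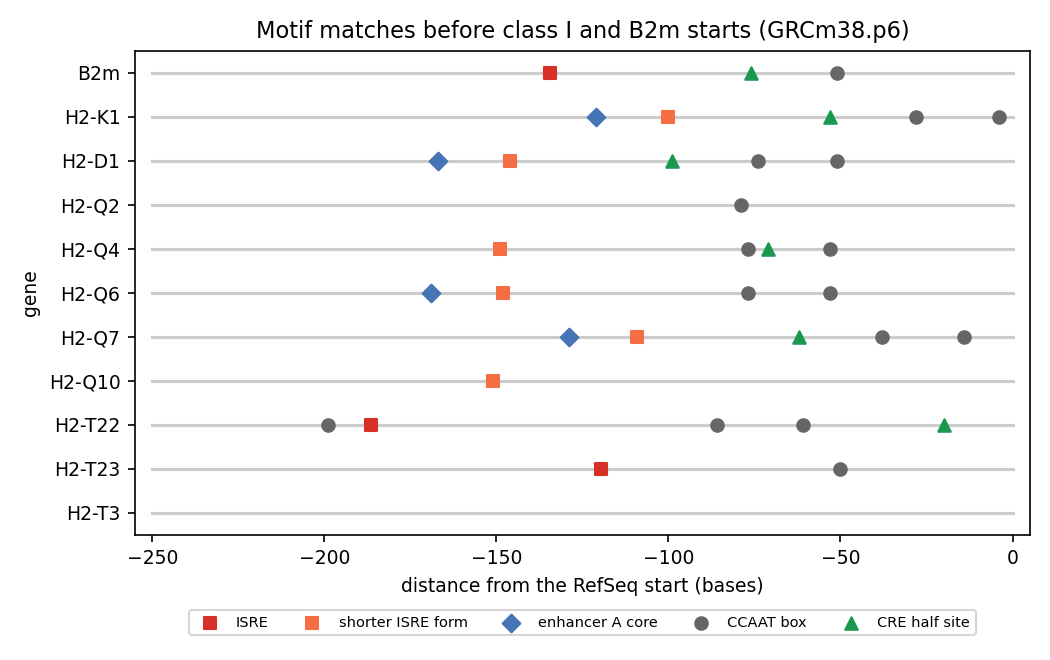
Positions of the motif matches in the 250 bases before the RefSeq start (x axis, bases from the start) for the 11 genes, B2m included, with a start in the table (y axis), at the start with the lowest coordinate for H2-K1. In H2-K1, H2-D1, H2-Q6 and H2-Q7 the enhancer A core lies just before the shorter ISRE form, while H2-Q2 and H2-T3 have no ISRE match.

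Among the 17 members with a mean of at least 1 FPKM, 13 were higher by 2-fold or more in pretreated cells. The count lower by that much was 0, and both counts are on the log2(FPKM + 1) scale. The mean was taken over both libraries, so members under 1 FPKM in naive cells entered only through their pretreated value. These were XLOC_010851 (0.974 FPKM in naive cells), XLOC_010852 (0.0142), XLOC_010853 (0), XLOC_010854 (0.0825) and XLOC_011602 (0.725), and all are among the 13. The count of 13 and the members' median are therefore partly built in. Over all 10228 rows compared in this way, 2.83% passed 2-fold upward and 7.12% downward; after centring on their median the shares were 4.14% and 5.15%. Among the 9227 of these rows that carry a transcript ID, as all members do, the uncentred shares were 2.41% and 4.24%. Since the members were chosen with this contrast known, nothing is read from the difference. The median change was 3.24 (log2) over the 17 members and -0.16 over all rows compared. The other 8 members had lower means and are given by their values. Of the 13, the member nearest to the 2-fold line was the H2-Q10 row at 1.79, and the nearest below it was XLOC_010847 at 0.96.

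B2m supplies the light chain that class I heavy chains need for stable display at the cell surface. The leading row of its span, XLOC_014516 (uc008maf.1 and uc008mag.1), had 1223 FPKM in the naive library and 16010 FPKM in the pretreated library. It was the most abundant member in both libraries, and moved from rank 192 to rank 12 of the 17576 rows. The ratio was 13.1 and the log2 change 3.71. The other row of the span, XLOC_014517, had 0.231 and 0.506 FPKM, so nearly all of the span's signal lay in 1 row. That row is called the B2m row below, after its window; the table itself ties no symbol to it.

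In the H2-K1 span, whose protein-coding gene presents peptides as a classical heavy chain, XLOC_011538 (4 transcript IDs) had 36.3 FPKM (naive) and 1692 FPKM (pretreated). This is a ratio of 46.7 and a log2 change of 5.51. It made up 94.5% of the span's summed FPKM in naive and 98.6% in pretreated cells. XLOC_011537 (uc012app.1) was higher as well, with 1.46 and 24.6 FPKM, a log2 change of 3.38. The remaining row, XLOC_010799 (uc008cao.1), went the other way at a low level, with 0.634 FPKM (naive) and 0.138 FPKM (pretreated). Its naive value was 4.61 times its pretreated value.

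The H2-D1 and H2-Q span held the member with the largest change on the log2(FPKM + 1) scale. XLOC_010848 (uc008chf.1, uc008chg.1, uc008chh.1 and uc012arc.1) had 95.7 FPKM (naive) and 5941 FPKM (pretreated), a ratio of 62.1 and a log2 change of 5.94. Its change ranked 2 among the rows with a transcript ID and a mean of at least 1 FPKM. With a pseudocount of 0.1 its change was 5.95, below the 6.93 of XLOC_010853 and the 6.11 of XLOC_010849, so the order depends on the pseudocount. XLOC_010849 had 1.21 and 90.6 FPKM (log2 change 5.37), a ratio of 74.8, and XLOC_010851 had 0.974 and 10.2 FPKM (log2 change 2.51). These 3 rows were low or moderate in naive cells and spread over a wide range of levels in pretreated cells.

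In naive cells 3 rows of this span were near or at 0. XLOC_010852 had 0.0142 FPKM (naive) and 6.12 FPKM (pretreated). XLOC_010853 was listed at 0 in naive and had 12.1 FPKM in pretreated cells. XLOC_010850 was also listed at 0 in naive cells and had 0.133 FPKM in pretreated cells. No ratio is given for rows listed at 0, since the table holds no read counts.

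Among the rows of this span with a mean of at least 1 FPKM, XLOC_010847 changed least. It had 234 FPKM (naive) and 458 FPKM (pretreated), a log2 change of 0.96, which became 1.12 after centring on the median of all rows. It was the most abundant chromosome 17 member in naive cells, with 70.5% of the span's FPKM, and held 7.03% of it in pretreated cells, where XLOC_010848 held 91.1%. Its 12 transcript IDs include uc008cgz.2 to uc008che.1 and uc008chp.1 to uc008chs.2, which in the numbering stand on either side of the uc008 IDs of the other 6 rows. The span also contains Ddx39b, so this value cannot be read as that of a class I gene alone. H2-Q10, which encodes a mainly liver-made secreted chain, had its own span and 1 row, XLOC_010854, with 0.0825 FPKM (naive) and 2.75 FPKM (pretreated), a log2 change of 1.79.

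**Figure D2:**
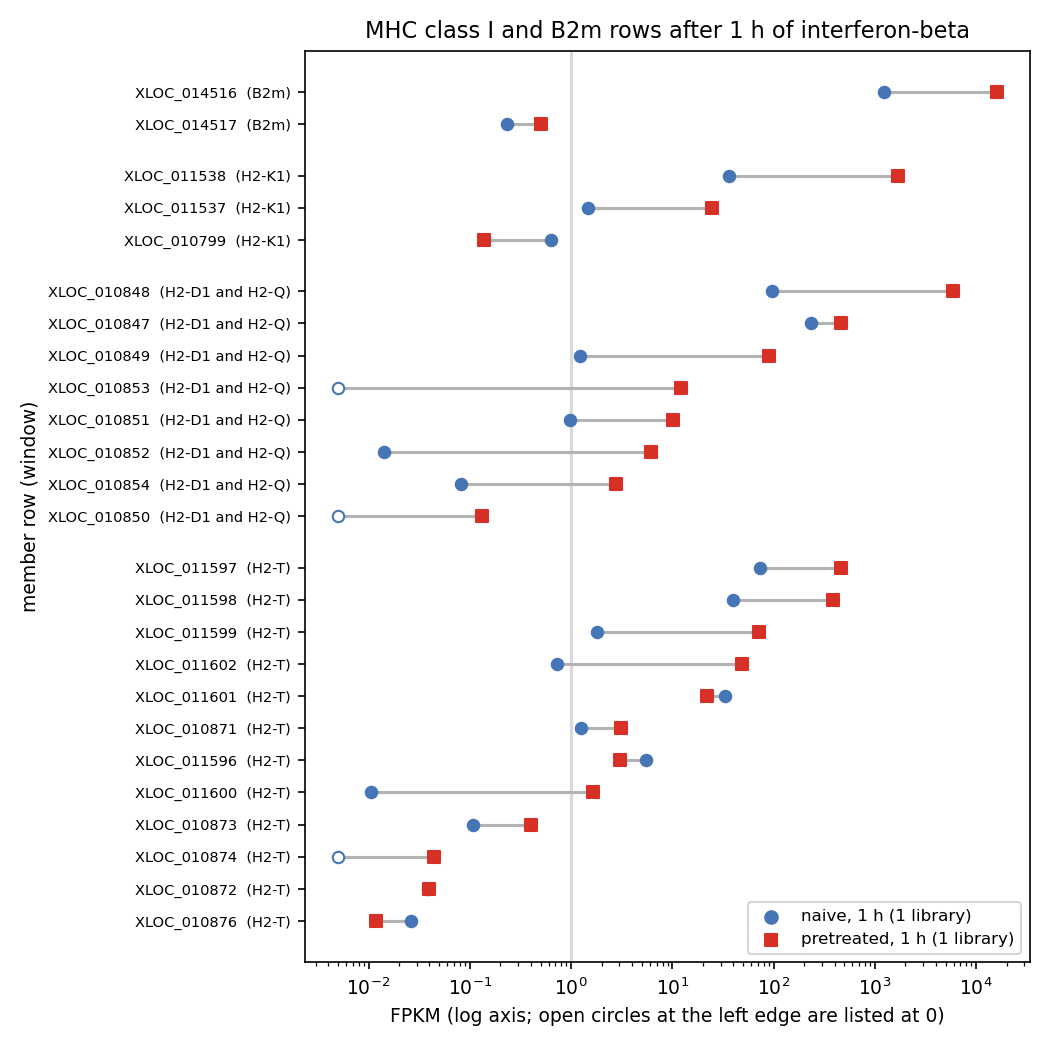
FPKM of each of the 25 member rows (x axis, log scale) in the naive library (circles) and the pretreated library (squares) after 1 h of interferon-beta, grouped by window (y axis), with 1 library per group and no error bars. The B2m row leads in both libraries (1223 and 16010 FPKM), and open circles mark the 3 rows listed at 0 in naive cells.

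The H2-T region encodes non-classical chains, among them H2-T23 (Qa-1), a ligand of natural killer cell receptors, and H2-T22, which gamma delta T cells recognise. XLOC_011597 (5 transcript IDs) had 72.7 FPKM (naive) and 462 FPKM (pretreated), a ratio of 6.35 and a log2 change of 2.65. XLOC_011598 (7 transcript IDs) had 40.1 and 387 FPKM, a ratio of 9.64 and a log2 change of 3.24. Together they led the span in both libraries, with 59.8% and 33.0% of its FPKM in naive cells and 49.7% and 41.7% in pretreated cells. XLOC_011599 (uc008cjz.2) was low in naive cells, at 1.81 FPKM, and had 71.3 FPKM after pretreatment, a log2 change of 4.69.

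Outside the large span, XLOC_011602 (chromosome 17, 36301389 to 36305467, a span that was not named) had 0.725 FPKM (naive) and 48.7 FPKM (pretreated), a ratio of 67.3 and a log2 change of 4.85. Among the 4 rows past 2-fold in the H2-T window, those lowest in naive cells had the largest changes. The naive value is part of the change, so such an order is partly built in and nothing is read from it. XLOC_011600 had 0.0107 FPKM (naive) and 1.63 FPKM (pretreated), with a mean under 1 FPKM.

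The other rows of the H2-T window changed less. XLOC_010871 had 1.27 FPKM (naive) and 3.09 FPKM (pretreated), a log2 change of 0.85. XLOC_011596 (uc008cjq.1) was lower in pretreated cells, with 5.53 and 3.07 FPKM, a log2 change of -0.68. XLOC_011601 (36278694 to 36299319, also not named) had 33.1 and 21.8 FPKM, a log2 change of -0.58. The last 4 rows stayed under 1 FPKM in both libraries. XLOC_010873 had 0.108 and 0.402 FPKM, XLOC_010872 had 0.0388 and 0.0393 FPKM, and XLOC_010874 was listed at 0 in naive and had 0.0444 FPKM in pretreated cells. XLOC_010876, in a span (36315722 to 36318309) of the length of the pseudogene Gm6623, had 0.0261 and 0.0118 FPKM.

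Strand was not given in the table, but serial numbers fell into a lower and an upper series on chromosomes 17 and 2, the ones examined. Among chromosome 17 rows whose span named 1 gene, 37 of 38 in the lower series lay on the plus strand and 34 of 37 in the upper series on the minus strand. The point that divides the series was fitted to these strands. In the large H2-T span the annotated H2-T24, H2-T23, H2-T22, H2-T10 and H2-Bl lie on the minus strand, and its 5 rows of the upper series included all 3 that were past 2-fold. Its 4 rows of the lower series had at most 3.09 FPKM. In the H2-K1 span, XLOC_010799, the row that was lower in pretreated cells, belonged to the lower series, whereas H2-K1 and H2-K2 lie on the minus strand.

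Summed over all 25 members, the values were 1749 FPKM (naive) and 25248 FPKM (pretreated), a ratio of 14.4. This was 0.184% of the FPKM of all rows with a transcript ID in naive cells and 2.88% in pretreated cells. The summed ratio was 44.8 for the H2-K1 window, 19.6 for the H2-D1 and H2-Q window, 13.1 for the B2m window and 6.43 for the H2-T window. Without XLOC_010847 the ratio of the H2-D1 and H2-Q window was 61.9, above that of the H2-K1 window. That row was left out after values were seen, because its transcript IDs stand on either side of the others. It also had the smallest change among the compared rows of the window. All 7 rows of its span lie in the stretch that holds Ddx39b, so the span alone does not set it apart. What remained lay mostly in XLOC_010848, with 5941 of 6063 FPKM in pretreated cells. The B2m row had 2.32 times the summed FPKM of the 23 chromosome 17 members in naive cells and 1.73 times in pretreated cells, or 4.19 and 1.82 times without XLOC_010847. The chromosome 17 rows in sum thus had a larger ratio (17.6, or 30.1 without XLOC_010847) than the B2m row (13.1). The ratio of all members was 17.5 without XLOC_014516.

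**Figure D3:**
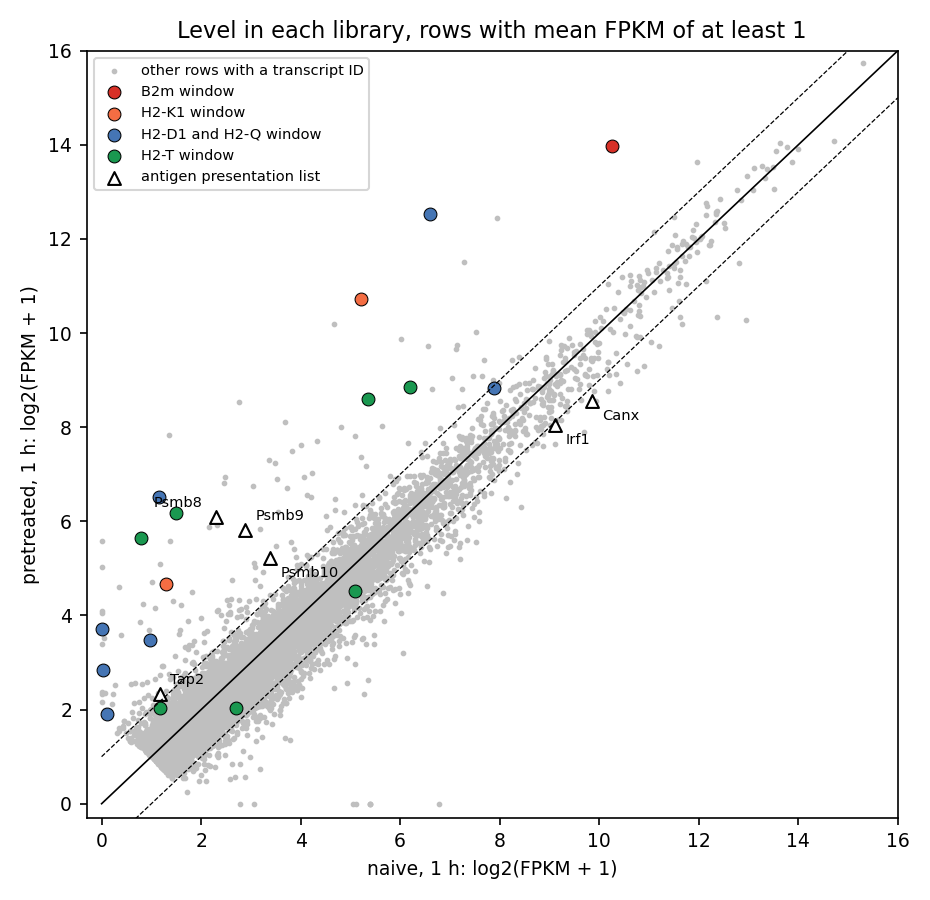
Level of each row with a transcript ID and a mean of at least 1 FPKM in the naive library (x axis) and the pretreated library (y axis), both as log2(FPKM + 1); the solid line marks equal levels and the dashed lines a 2-fold difference. The 13 member rows past 2-fold lie above the upper dashed line, Psmb8, Psmb9, Psmb10 and Tap2 lie above it too, and Canx and Irf1 lie below the lower one.

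How reads were divided among near-identical class I genes is not stated in the sources used here, and the letters of their transcripts overlap. In the longest protein-coding GENCODE transcript of each gene, the share of 50-base windows found in a transcript of another gene was 44.7% for H2-T22, mostly in H2-T10 (37.9%). It was 34.9% for H2-Q7, 32.0% for H2-Q6, 28.8% for H2-T23, 24.3% for H2-Q4, 22.9% for H2-Q1, 14.3% for H2-D1 and 8.79% for H2-K1. B2m shared 0 of its 811 windows. The read length is not given in the sources used here, and the part of shared reads in the class I values was not tested.

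In the authors' deposited table, 19 of the 25 members were tested and 14 had a q-value below 0.05. Of these, 13 were called higher and 1, XLOC_010799 (q = 0.0114), lower in pretreated cells. Over all 13388 rows tested there, 3.91% were called higher and 11.9% lower. That test compares the reads of 1 library with those of 1 other library, not the conditions. The authors' deposited table lists the q-value as 0 for 9 members, the B2m row, XLOC_011538 and XLOC_010848 among them. It gives 0.00016 for XLOC_010847, 0.0239 for XLOC_010852 and 0.227 for XLOC_010853, so the row with 12.1 FPKM against a listed 0 was not called. XLOC_011596 (0.139) and XLOC_011601 (0.281) were not called either.

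Peptides can reach class I molecules through the immunoproteasome, whose catalytic subunits include Psmb8, Psmb9 and Psmb10. The transporter made of Tap1 and Tap2 and chaperones of the endoplasmic reticulum also take part. Of a list of 13 antigen presentation genes, 6 could be tied to a row by their span; Tap1, Tapbp, Tapbpl, Erap1, Calr, Pdia3 and Nlrc5 could not. Of the 6, 4 passed 2-fold upward and 2 downward in pretreated cells, beside the same 2.83% and 7.12% of all rows. Among rows with a transcript ID, as these have, the shares were 2.41% and 4.24%. The downward count holds only before centring, since Irf1 falls short of 2-fold once the median of all rows (-0.16) is subtracted. Psmb8 had 3.92 FPKM (naive) and 66.9 FPKM (pretreated) (log2 change 3.79), and Psmb9 had 6.36 and 55.1 FPKM (2.93). Psmb10 had 9.43 and 36.3 FPKM (1.84), and Tap2 had 1.26 and 4.02 FPKM (1.15). Their pretreated levels were below that of XLOC_011538 in the H2-K1 span. Canx, a chaperone of new heavy chains, had 928 and 376 FPKM (log2 change -1.30; q = 0.144 in the authors' deposited table). Irf1, a transcription factor that binds class I promoters, had 555 and 263 FPKM (-1.08; q = 0.117 in the authors' deposited table).

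The same stretch of chromosome 17, with rows from 33911845 to 36409192, holds many genes outside the class I family. It had 107 rows with a transcript ID that are not members. They were taken by position alone, so class I genes outside the windows were not removed. Of the 107, 59 had a mean of at least 1 FPKM, with a median log2 change of 0.14. Of the 59, 8 (13.6%) passed 2-fold upward and 4 (6.78%) downward, beside 2.41% and 4.24% of all rows with an ID. The 8 included Psmb8, Psmb9 and Tap2. They also included XLOC_011560, with the span of Cfb, which encodes complement factor B, with 1.12 FPKM (naive) and 16.9 FPKM (pretreated), and 2 rows in a span from Zbtb22 to Tapbp, the gene of tapasin. The higher of these, XLOC_010795, had 28.3 and 72.0 FPKM. The remaining 2 were XLOC_010805, with 5.76 and 19.1 FPKM, and XLOC_011556, with 1.96 and 11.9 FPKM.

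**Figure D4:**
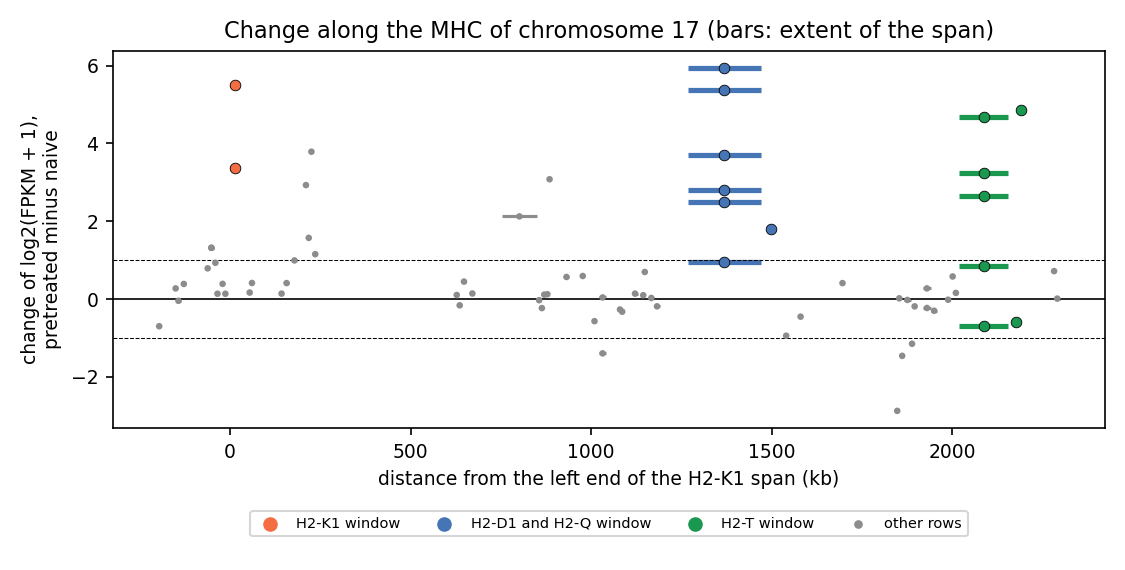
Change of log2(FPKM + 1), pretreated minus naive (y axis), of rows with a transcript ID and a mean of at least 1 FPKM along the MHC, against the distance from the left end of the H2-K1 span in kb (x axis). Points mark the middle and bars the extent of each span, dashed lines mark 2-fold; members reach 5.94, and the highest other row, Psmb8, 3.79.

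Fibroblast markers were checked where a span named the row. Col3a1, a fibrillar collagen, had 111 FPKM (naive) and 69.1 FPKM (pretreated), and Vim, an intermediate filament gene, had 917 and 704 FPKM; Pdgfrb had 45.0 and 47.8 FPKM and Thy1 0.144 and 0.293 FPKM. Of 7 leukocyte markers, 1 was found, Csf1r, with 0.0479 and 0.0168 FPKM, and of 3 endothelial and 3 MHC class II genes 0 were found. That marker was near 0 in both libraries; beyond it, the part of other cell types in the class I values was not tested. In bulk RNA, a change in the share of cells of a type and a change in RNA per cell cannot be told apart. At 14 loci compared, the FPKM inferred for 1 read was higher by 1.02 (log2) in the pretreated library, so low values are less certain there. This would put its depth at 0.492 of the naive depth if FPKM were scaled by library totals. The scaling between libraries is not given in the sources used here.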

How the data were processed

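PolyA RNA of MEFs was sequenced in 4 libraries, of which the 2 at 1 h were used here. The authors deposited FPKM values per row for these 2 libraries, with the p-value and q-value of their own comparison, in the layout of a Cuffdiff table per the file headers. TopHat, Cufflinks 1.2.1 and build mm9 are named in the submitters' processing notes without role or order. The annotation, filters and scaling between libraries are not given in the sources used here. Columns were matched to libraries by the sample names in every row.

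The change was log2(FPKM + 1), pretreated minus naive, which understates the change of low rows. Rows with status FAIL or HIDATA (24) were left out, and a mean of at least 1 FPKM was required. Changes of at least 2-fold were counted; with 1 library per group no test was run. Every member is given with its values, as are all pathway rows found. Starts were raised by 1 to count from 1. Names of listed genes rest on equal spans in GENCODE M21 or RefSeq (GRCm38), within 3 Mb. Of 12183 rows with an ID and a span of their own, 22.8% had a RefSeq gene of equal span, and 0.944% after lengthening each span by 7 bases. Member spans and other MHC rows were named by a looser rule, in which the ends of a span could belong to different genes. These shares do not measure how often that rule agrees by accident, which was not tested. The span naming and the names of other MHC rows were chosen after values were seen. Relative depth came from rows without an ID, listed at 0 in 1 library. There the authors' p-value was taken to depend only on how many reads (1 to 4) the other library had. Counting was checked on simulated data in which low naive values had been raised, so that check does not cover rows near 0 in naive cells. The members and lists were chosen with earlier results of these data known. Python 3.11.15, pandas 2.3.3, NumPy 2.4.6 and SciPy 1.17.1 were used.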

Additional observations from a re-analysis of the deposited data

How the results depend on the processing

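No paired analysis was possible because there is a single library for each group, and no replicate could be left out. A pseudocount cannot change the direction of a row, so all 25 members kept theirs with 0.1 by construction. After centring on the median of all rows, 24 of the 25 members kept their direction. The count of members at least 2-fold higher (13) was 14 with the smaller pseudocount, 14 without a filter, 11 at a mean of at least 5 FPKM, 15 after centring and 12 at 4-fold. With rows of a shared span summed, it was 6, since fewer units were counted. The count at least 2-fold lower was 0 under all 6 alternatives. None of them joined the smaller pseudocount with the lack of a filter. XLOC_010799, with a mean of 0.386 FPKM, had a log2 change of -0.52 with a pseudocount of 1 and -1.63 with 0.1. The members' median log2 change of 3.24 was 3.97 with the smaller pseudocount, 1.79 without a filter, 3.71 at 5 FPKM, 3.40 after centring and 3.71 with shared spans summed. The summed ratio of 14.4 was 17.5 without the most abundant member. Over all rows, 289 higher and 728 lower became 465 and 1175 with the smaller pseudocount, 176 and 452 at 5 FPKM, 99 and 143 at 4-fold, and 423 and 527 after centring, which brought the higher and lower counts closer. Alternatives added after seeing the data gave 2 antigen presentation rows and 4 other MHC rows at 4-fold, against 4 and 8. They also gave, without XLOC_010847, summed ratios of 16.4 for all members, 61.9 (against 19.6) for the H2-D1 and H2-Q window and 30.1 (against 17.6) for chromosome 17, and B2m-to-chromosome 17 ratios of 4.19 and 1.82 (against 2.32 and 1.73). Apart from the summed spans, the filters and the threshold, which change what is counted by construction, the cause was not tested. The FPKM table gives no read counts, so rows near 0 have an unknown counting error, and spread between cultures and pretreatment cannot be told apart.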
